A study of Homo sapiens with 59 samples.

Results

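The DNA replication and nucleotide synthesis genes described here are 39 genes chosen by symbol, out of 60675 genes in the deposited table. They were followed through 59 RNA-seq libraries of A549, an established human lung carcinoma cell line. All 39 had a single row in the table and all 39 passed the filter on low counts. Cells were exposed for 24 h to 1 of 8 herbal medicines, each a 70% ethanol extract, at 3 doses named low, medium and high. The doses of Coptidis Rhizoma, from low to high, were 4.4, 22 and 110 µg/mL. Those of Bupleuri Radix were 7.6, 38 and 190 µg/mL. Aconiti Lateralis Radix Preparata, Cimicifugae Rhizoma, Citri Unshius Pericarpium, Zizyphi Fructus, and the mixtures Banhasasim-tang and Yijung-tang had doses of 20, 100 and 500 µg/mL. The submitters lowered the top dose where it would have reached their 20% inhibitory concentration, so the high dose of Coptidis Rhizoma and of Bupleuri Radix is that concentration for each. The vehicle was DMSO, at 0.1% per the sample labels and 2% per the series text, a difference that could not be resolved here. Each dose had 3 libraries for Bupleuri Radix, Cimicifugae Rhizoma and Citri Unshius Pericarpium. Aconiti Lateralis Radix Preparata had 3 at the low and at the high dose and 2 at the medium dose. Coptidis Rhizoma, Zizyphi Fructus and Yijung-tang had 2 at each dose, Banhasasim-tang had 1, and vehicle had 3. The labels do not say whether libraries of a group came from separate cultures, so p-values measure only the spread between these libraries, which may be technical.

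Copying the genome starts when the origin recognition complex, with CDC6 and CDT1, loads rings of MCM proteins onto DNA. MCM10, CDC45 and the GINS complex turn each ring into a working helicase, primase and polymerase alpha lay down short starts, and polymerases delta and epsilon extend them while held by the clamp PCNA. FEN1 and LIG1 trim and join the fragments of the lagging strand, RPA coats the single strands, and ribonucleotide reductase, thymidylate synthase and thymidine kinase supply deoxynucleotides. Many of these genes are transcribed as cells pass from G1 into S phase, under E2F transcription factors. In RNA from whole cultures, fewer cells in S phase and less RNA per cell cannot be told apart.

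Promoters are shown because E2F factors are well known regulators of these genes. Each one printed belongs to the gene holding an E2F-type word that fell most under Coptidis Rhizoma in its role. The 6 roles with the largest such falls are shown, and TYMS, which also holds 1 word and fell less, is left out. RefSeq promoter windows on GRCh38.p14, from 250 bases before to 50 after the start of transcription, were matched to 33 of the 39 genes, giving 42 windows. The unmatched genes were GINS4, MCM4, MCM5, POLD3, RPA2 and RPA3. An E2F-type word (TTTCCCGC, TTTCGCGC, TTTGCCGC or TTTGGCGC, on either strand) lay in 17 of the 42 windows (40.5%), against 3.3% of all 35116 windows and 4.6% of the 17570 windows of the genes tested. CCAAT lay in 25 windows (59.5%, against 34.6% of all windows), and TTTGAA, the word at the core of the CHR element of mitotic genes, in 1 window (2.4%, against 15.2%). Of the 24 matched genes that fell at the high dose of Coptidis Rhizoma 14 held an E2F-type word, and of the 9 that were not called 3 did. A match describes these letters only. The windows below run 5′ to 3′ along the gene, with E2F-type words in capitals, 1 gene for each of 6 roles. They lie at GINS1 on chr20:25407423-25407722 (+ strand), LIG1 on chr19:48170295-48170594 (- strand), PCNA on chr20:5126573-5126872 (- strand), CDC6 on chr17:40287629-40287928 (+ strand), MCM2 on chr3:127598161-127598460 (+ strand) and POLA2 on chr11:65261712-65262011 (+ strand), in the order GINS1 (helicase activation), LIG1 (ligation), PCNA (clamp), CDC6 (origin licensing), MCM2 (helicase ring) and POLA2 (polymerase alpha). In MCM2 the capitals hold 2 overlapping words, 1 on each strand.
GINS1: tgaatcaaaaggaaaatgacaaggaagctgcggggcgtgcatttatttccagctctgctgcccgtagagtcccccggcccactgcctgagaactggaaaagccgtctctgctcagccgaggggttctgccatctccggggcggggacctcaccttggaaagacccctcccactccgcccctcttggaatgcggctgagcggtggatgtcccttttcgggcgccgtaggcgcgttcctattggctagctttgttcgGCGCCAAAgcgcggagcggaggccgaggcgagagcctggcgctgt
LIG1: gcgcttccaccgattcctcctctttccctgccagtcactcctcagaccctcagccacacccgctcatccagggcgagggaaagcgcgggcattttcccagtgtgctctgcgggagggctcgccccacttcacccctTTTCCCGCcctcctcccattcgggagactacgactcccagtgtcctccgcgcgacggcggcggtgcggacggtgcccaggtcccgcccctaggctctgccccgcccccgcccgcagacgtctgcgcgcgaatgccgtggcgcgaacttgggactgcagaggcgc
PCNA: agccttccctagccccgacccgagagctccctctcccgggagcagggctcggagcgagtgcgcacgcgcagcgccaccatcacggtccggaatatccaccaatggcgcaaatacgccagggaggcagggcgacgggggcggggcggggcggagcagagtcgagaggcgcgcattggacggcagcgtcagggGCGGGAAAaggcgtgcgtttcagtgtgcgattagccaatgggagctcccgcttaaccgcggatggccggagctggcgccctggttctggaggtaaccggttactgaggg
CDC6: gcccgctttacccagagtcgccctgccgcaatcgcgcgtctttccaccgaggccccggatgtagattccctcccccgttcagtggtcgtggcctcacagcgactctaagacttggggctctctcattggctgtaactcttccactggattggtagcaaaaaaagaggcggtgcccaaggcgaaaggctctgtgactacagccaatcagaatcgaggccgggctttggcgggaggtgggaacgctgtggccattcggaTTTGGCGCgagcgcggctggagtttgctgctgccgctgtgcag
MCM2: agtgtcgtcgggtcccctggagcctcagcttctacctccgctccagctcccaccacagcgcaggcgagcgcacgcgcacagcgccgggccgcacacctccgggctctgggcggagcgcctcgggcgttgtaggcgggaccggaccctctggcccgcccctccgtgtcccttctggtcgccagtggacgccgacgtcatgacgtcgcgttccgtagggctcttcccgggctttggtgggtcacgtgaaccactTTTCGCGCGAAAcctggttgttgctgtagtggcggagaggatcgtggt
POLA2: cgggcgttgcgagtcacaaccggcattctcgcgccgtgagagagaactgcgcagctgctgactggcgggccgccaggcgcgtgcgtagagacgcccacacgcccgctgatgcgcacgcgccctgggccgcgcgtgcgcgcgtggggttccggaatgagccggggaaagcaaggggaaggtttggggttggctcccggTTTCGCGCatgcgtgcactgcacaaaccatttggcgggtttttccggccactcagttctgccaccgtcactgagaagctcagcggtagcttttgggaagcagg

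Library totals ran from 17214755 to 39751161 expected counts. Levels are given as TMM-scaled CPM, counts scaled to a common library size, which are not corrected for gene length, so they are compared between libraries and not between genes. Sums over cell type markers and over antisense genes are instead CPM of the library total, without TMM scaling. Differences are log2 fold changes with their standard errors (SE) from an edgeR quasi-likelihood fit of all 59 libraries and 18568 genes. A gene is said to have risen or fallen where its Benjamini-Hochberg adjusted p, over all genes tested in that comparison, was below 0.05. A gene not called can still lie below vehicle in every library. Where groups are said not to overlap, the share of all genes tested that did so was not computed unless it is given. All 6 epithelial markers fixed for the line were expressed, at 5952 to 19831 CPM in sum. Markers of endothelial cells summed to at most 0.25 CPM, those of leukocytes to 4.88 to 31.6 CPM and those of fibroblasts to 5.2 to 73.6 CPM, and the T cell gene CD3E was at 0 in all 59 libraries. Library codes put Coptidis Rhizoma with Zizyphi Fructus, Citri Unshius Pericarpium with Cimicifugae Rhizoma, Bupleuri Radix with Aconiti Lateralis Radix Preparata, and Yijung-tang with Banhasasim-tang, with vehicle under a code of its own. A difference between these sets cannot be told apart from an extract's difference from vehicle, and all 21 comparisons with vehicle share the same 3 vehicle libraries. In 4 libraries (Citri Unshius Pericarpium high and medium dose replicate 3, Cimicifugae Rhizoma medium and low dose replicate 2) genes annotated as antisense took 3149 to 4600 CPM, against 2374 to 3137 CPM in the other 55. The values nearest to the 4 were those of the Coptidis Rhizoma high-dose libraries, at 3137 and 3132 CPM, against 2761 to 2805 CPM in vehicle, and the part of this in their results was not tested. These 4 entered the spread shared by every comparison, so counts without them are given where they differ by more than 1.5 times.

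**Figure D1:**
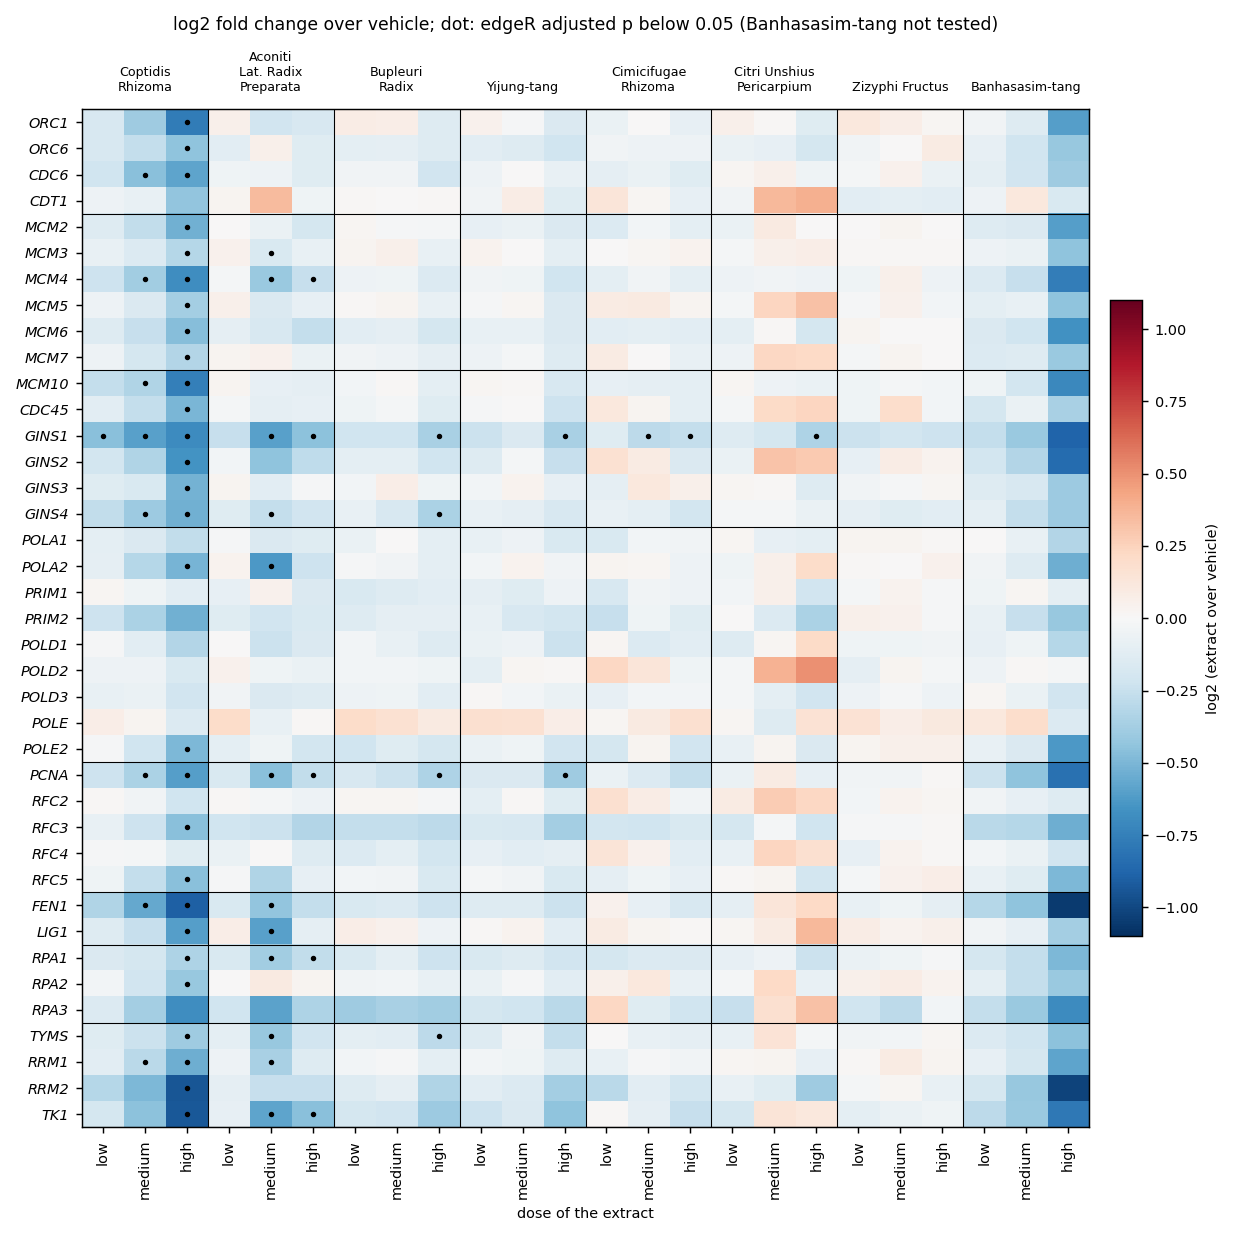
Log2 fold change over vehicle of the 39 genes (rows, ordered by role) in each extract at the low, medium and high dose (columns). Blue is lower and red is higher than vehicle, a dot marks an edgeR adjusted p below 0.05, and Banhasasim-tang (1 library per dose, log2 of its CPM over the vehicle mean) was not tested. The high dose of Coptidis Rhizoma holds 28 dots, more than any other column.

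Coptidis Rhizoma, a berberine-rich rhizome, had the most called genes of any extract tested. At its high dose 28 of the 39 genes fell and 0 rose, where 6.14% of all genes tested fell. DESeq2 also called 0 higher, and 33 of the 39 had an unadjusted p below 0.05. All 39 fitted values were negative, from -0.94 (RRM2) to -0.12 (PRIM1), with a median log2 fold change of -0.49 against -0.01 over all genes tested. The summed level of the 39 genes was 2898 ± 14.1 CPM at the high dose (SD, n = 2) and 4113 ± 22.8 CPM in vehicle (SD, n = 3). Mitochondrial rRNA took 9.13% to 11.1% of counts at the low and medium doses of Coptidis Rhizoma, and 6.42% and 6.09% at the high dose. Vehicle had 2.24% to 2.43%, and any link of this share with the levels of the 39 genes was not tested. Of the cell type markers KRT18, KRT8, COL3A1 and CD14 fell and 0 rose at this dose, and their part in the result was not tested. In a fit with mitochondrial genes left out of the library sizes, 27 of the 39 fell. With either high-dose library left out, so that 1 remained, 16 (without replicate 2) or 18 (without replicate 3) were called.

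Among the origin licensing genes ORC1, ORC6 and CDC6 fell and CDT1 was not called. ORC1, the largest subunit of the origin recognition complex (chromosome 1, 52372829 to 52404459), had 25.6 and 25.6 CPM under the high dose of Coptidis Rhizoma, against 43.4, 43.3 and 44.1 CPM in vehicle. The groups did not overlap, and the log2 fold change was -0.77 ± 0.15 (SE, edgeR adjusted p = 0.000194). ORC6, another subunit, fell by 0.44 on the log2 scale. CDC6, which recruits the helicase ring to the origin, fell by 0.58. CDT1, its partner in loading, averaged 29.2 CPM against 39.4 CPM in vehicle (log2 -0.43 ± 0.18 SE, edgeR adjusted p = 0.115).

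All 6 genes of the MCM ring fell, by 0.31 (MCM3) to 0.68 (MCM4) on the log2 scale. MCM4 (chromosome 8, 47960185 to 47978160) had 169 and 171 CPM under the high dose of Coptidis Rhizoma, against 280, 271 and 268 CPM in vehicle. It was lower in both treated libraries than in any vehicle library, at a fold of 0.623 (log2 -0.68 ± 0.07 SE, edgeR adjusted p = 2.58e-09). MCM2, MCM5, MCM6 and MCM7 had log2 fold changes of -0.53, -0.37, -0.47 and -0.32. The 6 proteins form 1 ring in equal numbers, and the fitted falls of their mRNAs spanned a range of values.

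The 6 genes that activate the ring fell as well, with a median log2 fold change of -0.60. MCM10, a factor that helps to start unwinding (chromosome 10, 13161554 to 13211104), had 44.5 and 45.7 CPM, against 75.7, 76.0 and 75.2 CPM in vehicle. The treated libraries lay well below the vehicle libraries, and the log2 fold change was -0.75 ± 0.09 (SE, edgeR adjusted p = 7.29e-08). GINS1 and GINS2, subunits of the GINS complex, fell by 0.69 and 0.66 on the log2 scale, GINS4 by 0.53, GINS3 by 0.52, and CDC45 by 0.50. GINS2 overlaps a part of GSE1 on the other strand, and the sources used here do not say whether reads were counted by strand.

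The 9 genes of primase and the polymerases moved least as a group: 2 fell, POLA2 and POLE2, and 7 were not called. POLA2, the accessory subunit of polymerase alpha (chromosome 11, 65261762 to 65305589), had 28.5 and 29.6 CPM under the high dose of Coptidis Rhizoma, against 43.3, 39.1 and 41.4 CPM in vehicle. The groups did not overlap (log2 -0.51 ± 0.10 SE, edgeR adjusted p = 0.000223). POLE2, a small subunit of polymerase epsilon, fell by 0.49 on the log2 scale. The catalytic subunits POLA1, POLD1 and POLE had log2 fold changes of -0.27, -0.32 and -0.15, with edgeR adjusted p of 0.198, 0.0623 and 0.556. PRIM1, the catalytic primase subunit, was at -0.12 ± 0.15 (SE). Its partner PRIM2 had 12.9 and 13.1 CPM, against 19.3, 17.8 and 19.4 CPM in vehicle (log2 -0.53 ± 0.20 SE, edgeR adjusted p = 0.0828). PRIM1 overlaps NACA on the same strand, and NACA averaged 518 CPM.

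PCNA, the sliding clamp, and the loader subunits RFC3 and RFC5 fell, while RFC2 and RFC4 were not called. PCNA (chromosome 20, 5114953 to 5126626) had 196 and 196 CPM under the high dose of Coptidis Rhizoma, against 294, 296 and 308 CPM in vehicle. Both treated libraries lay below all vehicle libraries, at a fold of 0.654 (log2 -0.61 ± 0.09 SE, edgeR adjusted p = 2.68e-06). RFC3 and RFC5 each fell by 0.46 on the log2 scale. RFC2 was at -0.22 ± 0.14 (SE) and RFC4 at -0.13 ± 0.14 (SE), although all are subunits of 1 complex. RFC4 overlaps EIF4A2 and RFC5 overlaps WSB2, both on the other strand.

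Both genes of Okazaki fragment maturation fell. FEN1, the nuclease that removes flaps of displaced strand (chromosome 11, 61792637 to 61797244), had 63.3 and 65.4 CPM under the high dose of Coptidis Rhizoma, against 117, 116 and 126 CPM in vehicle. That is a fold of 0.536 with no overlap between the groups (log2 -0.90 ± 0.16 SE, edgeR adjusted p = 6.81e-05). FEN1 overlaps FADS2 on the same strand, a gene at 431 CPM on average. LIG1, the ligase that seals the nicks, fell by 0.61 on the log2 scale.

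Of the single-strand binding subunits RPA1 and RPA2 fell, and RPA3 was not called. RPA2 (chromosome 1, 27891524 to 27914746) had 31.7 and 31.7 CPM, against 42.9, 41.9 and 42.7 CPM in vehicle. The groups were apart (log2 -0.42 ± 0.11 SE, edgeR adjusted p = 0.00862), though the call was lost in 3 of 12 alternative fits. RPA1 fell by 0.34 on the log2 scale. RPA3, the smallest subunit, had 24.4 and 25.2 CPM, against 39.7, 39.4 and 39.7 CPM in vehicle, again with no overlap. Its fitted value was larger, at -0.68 ± 0.27 (SE, edgeR adjusted p = 0.0931). The spread behind this SE comes from all 59 libraries, and RPA3 reached 76.4 CPM in Citri Unshius Pericarpium high dose replicate 3. The part of such libraries in the missing call was not tested. RPA3 overlaps UMAD1 on the other strand.

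All 4 nucleotide synthesis genes fell. RRM2, the small subunit of ribonucleotide reductase that rises in S phase (chromosome 2, 10120698 to 10131419), had 180 and 175 CPM under the high dose of Coptidis Rhizoma, against 337, 340 and 342 CPM in vehicle. This was the lowest fold of the 39 genes, 0.523 (log2 -0.94 ± 0.20 SE, edgeR adjusted p = 0.000971), and no library overlapped. TK1, which salvages thymidine, came next with 77.5 and 81.2 CPM, against 149, 148 and 157 CPM in vehicle, a fold of 0.526 (log2 -0.93). The large reductase subunit RRM1 fell by 0.54 and thymidylate synthase TYMS by 0.39 on the log2 scale. TYMS overlaps ENOSF1 on the other strand.

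**Figure D2:**
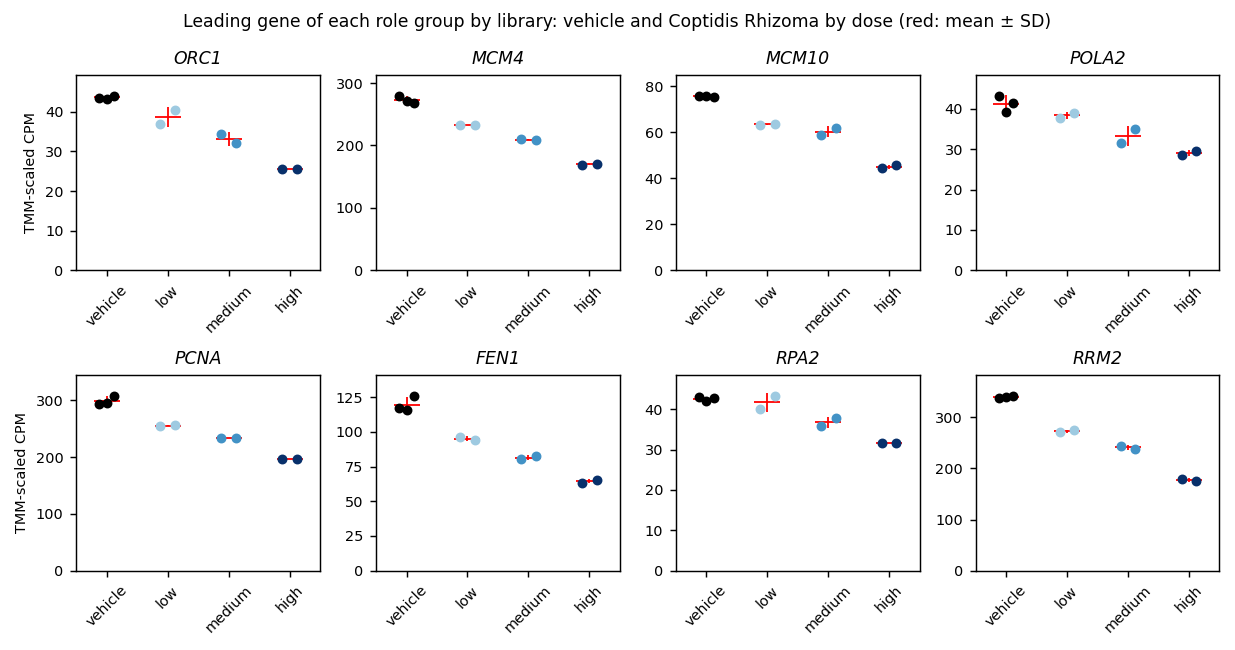
TMM-scaled CPM (y axis, from 0) of the called gene with the lowest log2 fold change in each of 8 roles, in each vehicle library (n = 3) and each Coptidis Rhizoma library at the low, medium and high dose (n = 2 each), with the mean and SD in red. At the high dose both libraries lie below all vehicle libraries in each panel, as for RRM2 at 180 and 175 CPM.

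Levels stepped down with the dose of Coptidis Rhizoma. The summed level of the 39 genes was 4113 ± 22.8 CPM in vehicle, 3705 ± 11.1 CPM at 4.4 µg/mL, 3397 ± 21.6 CPM at 22 µg/mL and 2898 ± 14.1 CPM at 110 µg/mL (SD, n = 3 for vehicle and 2 for each dose). Group means stepped down from vehicle through the low and medium to the high dose in 34 of the 39 genes, where 17% of all genes tested did so. The 5 exceptions were PRIM1, POLD2, POLD3, POLE and RFC2. RRM2 had 337, 340 and 342 CPM in vehicle, 271 and 275 CPM at 4.4 µg/mL, 244 and 238 CPM at 22 µg/mL, and 180 and 175 CPM at 110 µg/mL. These libraries fell into 4 steps without overlap.

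At the medium dose of Coptidis Rhizoma 8 of the 39 genes fell and 0 rose, against 1.51% of all genes tested that fell. DESeq2 called 9 of them, and 19 had an unadjusted p below 0.05. The 8 were CDC6, MCM4, MCM10, GINS1, GINS4, PCNA, FEN1 and RRM1, and the median log2 fold change of the 39 was -0.25. GINS1, a subunit of the helicase activator (chromosome 20, 25407727 to 25452628), had 57.2 and 57.1 CPM at the medium dose, against 85.1, 87.4 and 87.7 CPM in vehicle. With no overlap, it had the lowest fold of the 8 at 0.659 (log2 -0.60 ± 0.07 SE, edgeR adjusted p = 5.21e-08). CDC6 had 82.7 and 86.0 CPM at the medium dose, against 119, 116 and 114 CPM in vehicle (log2 -0.46 ± 0.08 SE, edgeR adjusted p = 0.000325). MCM4 had 210 and 209 CPM, against 280, 271 and 268 CPM in vehicle (log2 -0.38 ± 0.07 SE, edgeR adjusted p = 0.000496). In both genes the treated libraries lay below every vehicle library. PCNA had 234 and 234 CPM, against 294, 296 and 308 CPM in vehicle (log2 -0.35). FEN1 had 80.4 and 82.6 CPM, against 117, 116 and 126 CPM in vehicle (log2 -0.56). RRM1 had 151 and 158 CPM, against 190, 192 and 191 CPM in vehicle (log2 -0.30). Libraries again did not overlap, while these 3 calls were lost in 4, 5 and 8 of 12 alternative fits. The count of called genes was 24 without the 4 libraries of high antisense share, 31 in a fit of the Coptidis Rhizoma and vehicle libraries only, 2 with no filter on low counts, and 3 to 5 with 1 library left out.

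At the low dose only GINS1 fell, with 64.1 and 62.2 CPM at 4.4 µg/mL, against 85.1, 87.4 and 87.7 CPM in vehicle. The libraries were apart and the log2 fold change was -0.46 ± 0.07 (SE, edgeR adjusted p = 4.51e-05). Of all genes tested 0.145% fell at this dose, and the median of the 39 genes was -0.13. DESeq2 called 2 of the 39, and the edgeR count was 8 without the 4 libraries of high antisense share, 18 in a fit of the Coptidis Rhizoma and vehicle libraries alone and 0 with no filter on low counts.

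**Figure D3:**
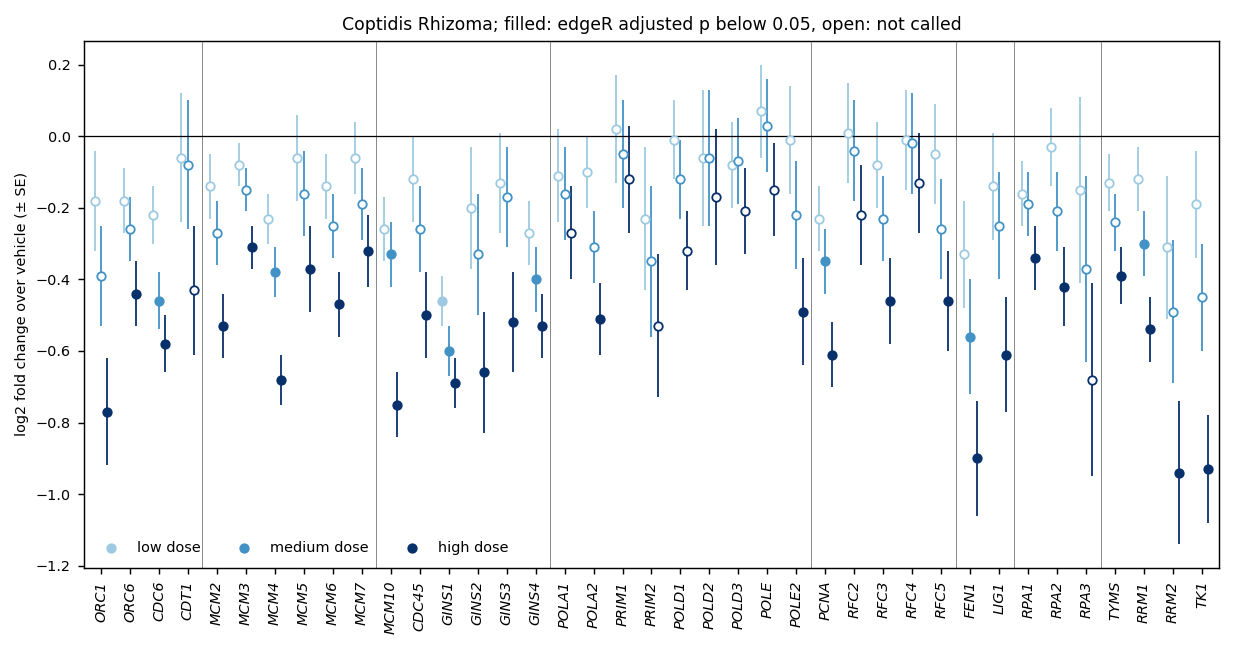
Log2 fold change over vehicle with its SE (y axis) of each of the 39 genes (x axis, ordered by role) at the low, medium and high dose of Coptidis Rhizoma. Filled points passed the edgeR test, with 1 filled at the low, 8 at the medium and 28 at the high dose.

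The comparison of the high with the low dose of Coptidis Rhizoma uses no vehicle library and stays within 1 set of libraries. In it 10 of the 39 genes fell and 0 rose, against 1.38% of all genes tested that fell. DESeq2 called 13 lower and 28 had an unadjusted p below 0.05. The median log2 fold change was -0.37, and all 39 fitted values were negative. The 10 were ORC1, CDC6, MCM2, MCM3, MCM4, MCM10, POLA2, PCNA, RRM1 and TK1. TK1 had 77.5 and 81.2 CPM at the high dose, against 132 and 133 CPM at the low dose (log2 -0.74 ± 0.17 SE, edgeR adjusted p = 0.00732). MCM4 had 169 and 171 CPM at the high dose, against 233 and 233 CPM at the low dose (log2 -0.46 ± 0.08 SE, edgeR adjusted p = 0.00021). Neither gene overlapped between the doses. MCM10 had 44.5 and 45.7 CPM at the high dose, against 63.1 and 63.7 CPM at the low dose (log2 -0.49). ORC1 had 25.6 and 25.6 CPM at the high dose, against 36.8 and 40.4 CPM at the low dose (log2 -0.59). The licensing gene and the helicase activator thus each had separate groups. POLA2 had 28.5 and 29.6 CPM at the high dose, against 37.8 and 39 CPM at the low dose (log2 -0.40). PCNA had 196 and 196 CPM at the high dose, against 255 and 256 CPM at the low dose (log2 -0.38). With 2 libraries a dose the count rested on each: it was 1 or 2 with any of the 4 left out and 2 with no filter on low counts. It was 35 in a fit of the Coptidis Rhizoma libraries only, and 31 when the 4 libraries of high antisense share were left out.

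Set against the high dose of Zizyphi Fructus, from the same set of libraries but at 500 µg/mL, 110 µg/mL of Coptidis Rhizoma had 26 of the 39 genes lower and 0 higher, where 4.02% of all genes tested were lower. DESeq2 called 26 as well and 31 had an unadjusted p below 0.05. The median was -0.47. TK1 had 77.5 and 81.2 CPM with Coptidis Rhizoma, against 138 and 154 CPM with Zizyphi Fructus (log2 -0.88 ± 0.17 SE, edgeR adjusted p = 0.000275). FEN1 had 63.3 and 65.4 CPM with Coptidis Rhizoma, against 109 and 115 CPM with Zizyphi Fructus (log2 -0.80 ± 0.17 SE, edgeR adjusted p = 0.00129). Both genes separated the 2 extracts, but so did genes that were not called, such as PRIM1 (log2 -0.11) and POLD2 (log2 -0.15). ORC1 had 25.6 and 25.6 CPM with Coptidis Rhizoma, against 44.2 and 44 CPM with Zizyphi Fructus (log2 -0.78). MCM10 had 44.5 and 45.7 CPM with Coptidis Rhizoma, against 76.7 and 71.1 CPM with Zizyphi Fructus (log2 -0.71). In these licensing and helicase genes, too, no library overlapped. MCM4 had 169 and 171 CPM with Coptidis Rhizoma, against 266 and 256 CPM with Zizyphi Fructus (log2 -0.62). PCNA had 196 and 196 CPM with Coptidis Rhizoma, against 292 and 312 CPM with Zizyphi Fructus (log2 -0.62). POLA2 had 28.5 and 29.6 CPM with Coptidis Rhizoma, against 43.8 and 41.5 CPM with Zizyphi Fructus (log2 -0.55). RPA2 was at 31.7 and 31.7 CPM with Coptidis Rhizoma, against 44.4 and 42.8 CPM with Zizyphi Fructus (log2 -0.46), a call lost in 5 of 11 alternative fits. The count was 14 with no filter on low counts, 15 without Coptidis Rhizoma replicate 2 or Zizyphi Fructus replicate 2, 14 without Coptidis Rhizoma replicate 3 and 17 without Zizyphi Fructus replicate 3.

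Called genes in lists next to the 39 mostly fell at the high dose of Coptidis Rhizoma, where 6.14% of all genes tested fell and 6.41% rose. Of 38 other replication genes 13 fell and 0 rose, with a median log2 fold change of -0.29. ASF1B, a histone chaperone that works behind the fork, fell by 0.87 on the log2 scale, GMNN, the inhibitor of CDT1, by 0.66, and TICRR, a firing factor, by 0.68. Of 28 other nucleotide synthesis genes 6 fell and 2 rose, with a median of -0.17. DUT, which clears dUTP, fell by 0.66 on the log2 scale. CTPS1, which makes CTP, rose 0.62 and the purine enzyme GART rose 0.38 on the log2 scale. Of 25 regulators of the G1/S step 11 fell and 1 rose, with a median of -0.32. CCND3, a D-type cyclin, fell by 1.35, CDKN2C by 1.25 and E2F8 by 1.1. The gene that rose was CDKN1A (p21), by 0.57 (edgeR adjusted p = 0.000181). E2F1 was at -0.43 ± 0.20 (SE, edgeR adjusted p = 0.181). Of 25 mitosis genes 22 fell and 0 rose, with a median of -0.63, among them KIF20A at -0.93 and CDK1 at -0.78. The median of the 39 genes at this dose was -0.49. The named genes of these lists were chosen after their values were seen, and the lists were compared by count only.

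**Figure D4:**
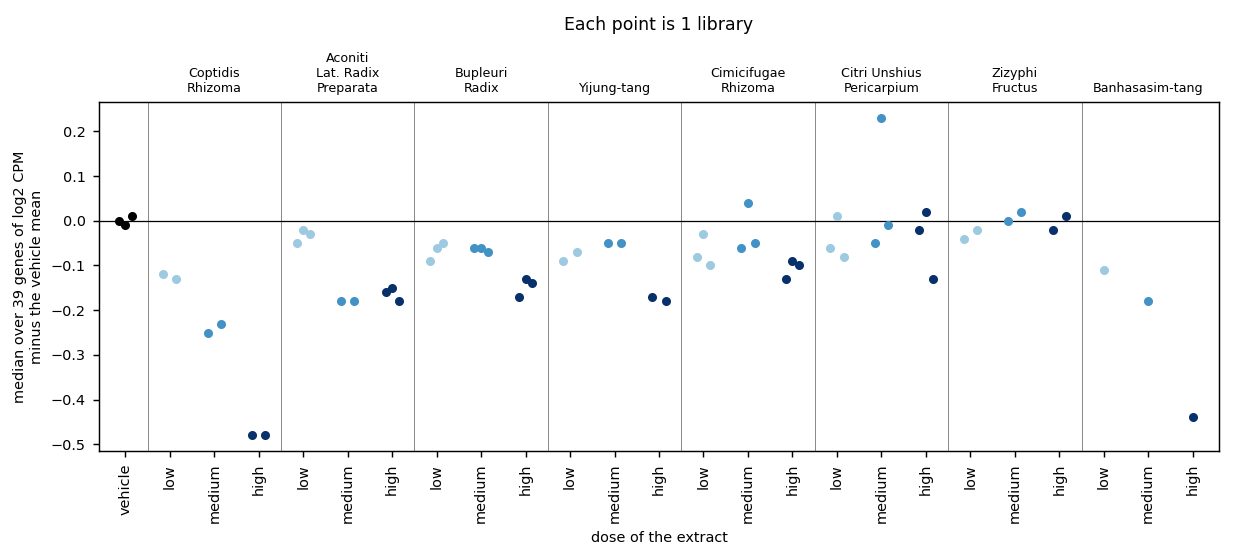
Median over the 39 genes of log2 CPM minus the vehicle mean (y axis) for each of the 59 libraries, by extract and dose (x axis), with vehicle at the left. The high-dose libraries of Coptidis Rhizoma lie at -0.48, that of Banhasasim-tang at -0.44, and those of Zizyphi Fructus at -0.02 and 0.01.

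Aconiti Lateralis Radix Preparata, a processed aconite root, had 12 of the 39 genes lower at its medium dose and 5 lower at its high dose. At 100 µg/mL 12 of the 39 genes fell and 0 rose, against 9.28% of all genes tested that fell. DESeq2 called 12 and 17 had an unadjusted p below 0.05. The 12 were MCM3, MCM4, GINS1, GINS4, POLA2, PCNA, FEN1, LIG1, RPA1, TYMS, RRM1 and TK1, and 0 of the 4 licensing genes was among them. The median of the 39 was -0.18 against -0.01 over all genes tested. GINS1 had 57.3 and 57.3 CPM at the medium dose, against 85.1, 87.4 and 87.7 CPM in vehicle (log2 -0.60 ± 0.07 SE, edgeR adjusted p = 6.92e-09). POLA2 had 26.6 and 26.8 CPM, against 43.3, 39.1 and 41.4 CPM in vehicle (log2 -0.63 ± 0.10 SE, edgeR adjusted p = 4.39e-06). POLA2 thus had the lowest log2 fold change of the 39 here, and neither gene overlapped with vehicle. LIG1 had 49.1 and 47.9 CPM, against 77.1, 71.2 and 72.2 CPM in vehicle (log2 -0.60). TK1 had 101 and 101 CPM, against 149, 148 and 157 CPM in vehicle (log2 -0.58). The ligase and the thymidine salvage enzyme were thus lower in both libraries. PCNA had 221 and 214 CPM, against 294, 296 and 308 CPM in vehicle (log2 -0.46). MCM4 had 205 and 206 CPM, against 280, 271 and 268 CPM in vehicle (log2 -0.41). RPA1 had 127 and 131 CPM, against 173, 168 and 165 CPM in vehicle (log2 -0.38). All 3 were below every vehicle library. ORC1 and RRM2, among the lowest with Coptidis Rhizoma, were at -0.21 ± 0.14 and -0.25 ± 0.20 here (SE), with edgeR adjusted p of 0.362 and 0.456. CDT1 had a fitted value above 0, 0.35 ± 0.17 (SE, edgeR adjusted p = 0.179). Of all genes tested 8.23% rose. Of the other replication genes 4 fell and 2 rose, of the other nucleotide synthesis genes 4 and 2, and of the G1/S regulators 5 and 2. Of the 25 mitosis genes 15 fell and 0 rose, with a median of -0.43. Cell type markers also changed at this dose: 3 of 6 epithelial markers fell, 2 of 6 fibroblast markers fell, and of 6 leukocyte markers CD14 fell and CD68 rose. Epithelial markers summed to 6776 and 6640 CPM at the medium dose, against 8402 to 8624 CPM in vehicle, with CDH1 (E-cadherin) at a log2 fold change of -2.54. Leukocyte markers summed to 28.8 and 31.6 CPM, against 7.51 to 9.11 CPM in vehicle, most of it CD68, a lysosomal protein. Fibroblast markers summed to 5.2 and 5.48 CPM, against 34.9 to 36.3 CPM in vehicle, most of it COL1A1. The part of these markers in the result was not tested. The count for the 39 genes was 23 (22 lower and 1 higher) without the 4 libraries of high antisense share, 24 (23 lower and 1 higher) in a fit of this extract and vehicle only, 8 without medium-dose replicate 1 and 6 without replicate 2.

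At 500 µg/mL of Aconiti Lateralis Radix Preparata 5 of the 39 genes fell and 0 rose, against 2.09% of all genes tested that fell. DESeq2 called 6 and 11 had an unadjusted p below 0.05. GINS1 had 63.2, 63.2 and 63.7 CPM at the high dose, against 85.1, 87.4 and 87.7 CPM in vehicle (log2 -0.45 ± 0.06 SE, edgeR adjusted p = 1.5e-06). TK1 had 113, 113 and 104 CPM, against 149, 148 and 157 CPM in vehicle (log2 -0.46 ± 0.13 SE, edgeR adjusted p = 0.0377). In both genes the 3 treated libraries lay below the 3 of vehicle. MCM4 had 230, 229 and 229 CPM, against 280, 271 and 268 CPM in vehicle (log2 -0.25). PCNA had 254, 238 and 254 CPM, against 294, 296 and 308 CPM in vehicle (log2 -0.27). RPA1 had 145, 137 and 139 CPM, against 173, 168 and 165 CPM in vehicle (log2 -0.27). These helicase, clamp and single-strand binding genes did not overlap with vehicle either, but each lost its call in 5 to 8 of 13 alternative fits, and TK1 lost its call in 6. The count was 1 or 2 with any library left out, 2 with no filter on low counts, and 18 either without the 4 libraries of high antisense share or in a fit of this extract and vehicle only. The difference between the medium and the high dose was not tested.

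At 20 µg/mL edgeR called 0 of the 39 genes and 0% of all genes tested. DESeq2 called 1, and 3 had an unadjusted p below 0.05 in edgeR. Between the high and the low dose MCM4 and GINS1 fell and 0 rose, 2 of 39 against 1.72% of all genes tested that fell. MCM4 had 230, 229 and 229 CPM at the high dose, against 267, 259 and 283 CPM at the low dose (log2 -0.23). GINS1 had 63.2, 63.2 and 63.7 CPM at the high dose, against 74.5, 70.6 and 73.9 CPM at the low dose (log2 -0.20). The doses did not overlap in either gene. The count was 0 or 1 with any library left out, 0 with no filter on low counts, and 8 when the 4 libraries of high antisense share were left out.

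With Bupleuri Radix at its high dose 4 of the 39 genes fell and 0 rose, against 1.31% of all genes tested that fell. DESeq2 called 6 and 10 had an unadjusted p below 0.05. The 4 were GINS1, GINS4, PCNA and TYMS. GINS1 had 67.7, 66.6 and 68.8 CPM at 190 µg/mL, against 85.1, 87.4 and 87.7 CPM in vehicle (log2 -0.36 ± 0.06 SE, edgeR adjusted p = 9.41e-05). PCNA had 218, 233 and 257 CPM, against 294, 296 and 308 CPM in vehicle (log2 -0.34 ± 0.08 SE, edgeR adjusted p = 0.00635). TYMS had 110, 114 and 119 CPM, against 136, 141 and 141 CPM in vehicle (log2 -0.29). Every treated library lay below every vehicle library in these 3 genes, while the call was lost in 1 of 13 alternative fits for GINS1, 2 for PCNA and 6 for TYMS. RRM2 and TK1 were at -0.33 and -0.40 without a call. The count was 16 without the 4 libraries of high antisense share, 18 in a fit of this extract and vehicle only, 0 with no filter on low counts, and 2 without high-dose replicate 1 or replicate 2.

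At the medium and the low dose of Bupleuri Radix edgeR called 0 of the 39 genes, against 0.00539% and 0% of all genes tested. DESeq2 called 1 at each, and 4 had an unadjusted p below 0.05 at each. Without the 4 libraries of high antisense share 6 fell at the medium and 5 at the low dose. Between its high and low dose edgeR called 0, against 1.58% of all genes tested. DESeq2 called 1 there, 5 had an unadjusted p below 0.05, and 5 fell without the 4 libraries. Set against Aconiti Lateralis Radix Preparata at the high dose, 190 µg/mL of Bupleuri Radix had 0 of the 39 genes called, against 1.33% of all genes tested. DESeq2 called 0 and 1 had an unadjusted p below 0.05. The 39 differences ran from -0.14 to 0.17 on the log2 scale.

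With Yijung-tang at its high dose GINS1 and PCNA fell and 0 rose, 2 of 39 against 0.587% of all genes tested that fell. DESeq2 called 3 and 11 had an unadjusted p below 0.05. GINS1 had 65.9 and 69.1 CPM at 500 µg/mL, against 85.1, 87.4 and 87.7 CPM in vehicle (log2 -0.36 ± 0.07 SE, edgeR adjusted p = 0.000902). PCNA had 229 and 227 CPM, against 294, 296 and 308 CPM in vehicle (log2 -0.39 ± 0.09 SE, edgeR adjusted p = 0.0102). Both were lower in each treated library. Fitted values were negative for 37 of the 39 genes, with a median of -0.17. The count was 13 without the 4 libraries of high antisense share, 20 in a fit of this extract and vehicle only, 0 with no filter on low counts or without high-dose replicate 1, and 1 without high-dose replicate 2 or vehicle replicate 3. At the medium and the low dose edgeR and DESeq2 called 0, against 0.0108% and 0% of all genes tested in edgeR, and 1 had an unadjusted p below 0.05 at each. Between the high and the low dose both tools called 0, against 0.431% of all genes tested in edgeR, with 4 at an unadjusted p below 0.05.

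Banhasasim-tang, a mixture with 1 library at each dose, could not be tested. Its values are those libraries' own and have no replicate check. Its high-dose library had the lowest summed level of the 39 genes of any group mean, 2818 CPM, against 4113 ± 22.8 CPM in vehicle (SD, n = 3). In that library 38 of the 39 genes were below all 3 vehicle libraries and 0 above, where 37.1% of all genes were below and 36.5% above. FEN1 had 57.8 CPM at 500 µg/mL, against 117, 116 and 126 CPM in vehicle. RRM2 had 167 CPM, against 337, 340 and 342 CPM in vehicle. These were the lowest of the 39, at -1.05 and -1.02 on the log2 scale. POLD2 was the gene within the vehicle range, with 151 CPM. By dose RRM2 had 296 CPM at 20, 254 CPM at 100 and 167 CPM at 500 µg/mL. The median over the 39 genes was -0.11, -0.18 and -0.44 at these doses, and 31, 33 and 38 genes were below all vehicle libraries. At the low dose 30.9% of all genes were below and at the medium dose 32.1%. Mitochondrial rRNA took 3.87% to 15.2% of counts in these 3 libraries, and its part in these levels was not tested.

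Citri Unshius Pericarpium, a citrus peel, had 1 called gene against vehicle, at the high dose, and replicates that stood apart from each other. At the high dose GINS1 fell and 0 of the 39 genes rose, against 0.905% of all genes tested that fell. GINS1 had 74.3, 64.7 and 66.2 CPM at 500 µg/mL, against 85.1, 87.4 and 87.7 CPM in vehicle (log2 -0.34 ± 0.06 SE, edgeR adjusted p = 0.00582). All 3 libraries were below vehicle. Replicate 3, 1 of the libraries of high antisense share, stood apart from replicates 1 and 2 in both directions, as shown by 4 genes chosen after their values were seen. RRM2 had 310, 338 and 126 CPM in replicates 1, 2 and 3, against 337, 340 and 342 CPM in vehicle. PRIM2 had 18.2, 18.9 and 6.73 CPM, against 19.3, 17.8 and 19.4 CPM in vehicle. Replicate 3 was the lowest in both genes, and in RRM2 replicate 1 also lay below the vehicle libraries. LIG1 had 71.7, 71.6 and 140 CPM, against 77.1, 71.2 and 72.2 CPM in vehicle. POLD2, a subunit of polymerase delta, had 150, 190 and 310 CPM, against 150 to 158 CPM in vehicle. The ligase and the polymerase subunit were high in the same library, whose epithelial markers summed to 19831 CPM, the highest of the 59. DESeq2 called 2 lower and 2 higher, and 13 had an unadjusted p below 0.05. Without replicate 1 edgeR called 6 lower and 8 higher, without replicate 2 it called 6 lower and 5 higher, without replicate 3 it called 1 lower, and without vehicle replicate 2 it called 0, as it did in a fit of this extract and vehicle only.

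At the medium dose of Citri Unshius Pericarpium edgeR and DESeq2 called 0, against 0% of all genes tested in edgeR, with 8 of the 39 at an unadjusted p below 0.05. Replicate 2 had a median of 0.23 above the vehicle mean on the log2 scale, against -0.05 and -0.01 in replicates 1 and 3, and without replicate 1 edgeR called 5. At the low dose both tools called 0, against 0.00539% of all genes tested in edgeR, with 1 at an unadjusted p below 0.05. Between the high and the low dose GINS1 fell and POLD1 rose, against 0.42% of all genes tested that fell and 3.12% that rose. GINS1 had 74.3, 64.7 and 66.2 CPM at the high dose, against 77.5, 81.8 and 76.5 CPM at the low dose (log2 -0.20). POLD1, the catalytic subunit of polymerase delta, had 93.0, 90.7 and 138 CPM at the high dose, against 81.2, 84.9 and 86.0 CPM at the low dose (log2 0.35). The groups did not overlap, with replicate 3 highest in POLD1. Same-numbered libraries deviated together here, but the calls above come from the fit without a replicate block. With a block, which gave each replicate number 1 effect shared by all 59 libraries, 1 fell and 2 rose. A paired test within this extract was not run. The count was 0 without the 4 libraries named above for antisense counts, and also without high-dose replicate 3 or any low-dose library. It was 15 without high-dose replicate 1, 11 without high-dose replicate 2 and 6 with DESeq2.

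With Cimicifugae Rhizoma GINS1 fell at the high and at the medium dose. At the high dose it was the only called gene of the 39, against 0.226% of all genes tested that fell. GINS1 had 69.8, 77.6 and 69.7 CPM at 500 µg/mL, against 85.1, 87.4 and 87.7 CPM in vehicle (log2 -0.26 ± 0.06 SE, edgeR adjusted p = 0.0269). At the medium dose, where 0.0108% of all genes tested fell, GINS1 had 68.4, 71.8 and 72.2 CPM, against the same vehicle values (log2 -0.29 ± 0.06 SE, edgeR adjusted p = 0.0478). All 6 libraries were below vehicle, and each call was lost in 7 of 13 alternative fits, a fit of this extract and vehicle only among them. Leaving out any vehicle library ended both calls, as did leaving out replicate 1 or replicate 3 of the treated group. Without the 4 libraries of high antisense share 6 of the 39 fell at the high and 5 at the medium dose. At the low dose edgeR and DESeq2 called 0, against 0% of all genes tested in edgeR, with 2 at an unadjusted p below 0.05. Between the high and the low dose both tools called 0, against 0.221% of all genes tested in edgeR, with 5 at an unadjusted p below 0.05.

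At the high dose Cimicifugae Rhizoma had 5 of the 39 genes lower than Citri Unshius Pericarpium, both at 500 µg/mL, against 6.26% of all genes tested, and 0 higher. DESeq2 called 10 lower and 15 had an unadjusted p below 0.05. The 5 were MCM7, CDC45, POLA2, POLD1 and POLD2. MCM7 had 313, 333 and 316 CPM with Cimicifugae Rhizoma, against 346, 376 and 464 CPM with Citri Unshius Pericarpium (log2 -0.30). CDC45 had 24.8, 25.2 and 25.9 CPM with Cimicifugae Rhizoma, against 26.8, 29.3 and 41.1 CPM with Citri Unshius Pericarpium (log2 -0.35). POLD2 had 139, 157 and 149 CPM with Cimicifugae Rhizoma, against 150, 190 and 310 CPM with Citri Unshius Pericarpium (log2 -0.55). Replicate 3 of Citri Unshius Pericarpium was highest in all 3, and POLD2 overlapped between the extracts. Without that library, or without any Cimicifugae Rhizoma library of the high dose, 0 were called. With the 4 libraries of high antisense share left out 1 was called. Without Citri Unshius Pericarpium replicate 1 it was 13 lower and 1 higher, and without replicate 2 it was 9 lower.

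With Zizyphi Fructus, the jujube fruit, edgeR and DESeq2 called 0 of the 39 genes at the low, the medium and the high dose. Of all genes tested edgeR called 0% at each. An unadjusted p below 0.05 was reached by 1 gene at each dose. Medians over the 39 genes were -0.03 at the low, 0.03 at the medium and 0.00 at the high dose, and fitted values at the high dose ran from -0.23 to 0.11. Between the high and the low dose both tools called 0, with 0% of all genes tested in edgeR and 0 genes at an unadjusted p below 0.05. PCNA had 292 and 312 CPM at 500 µg/mL, against 294, 296 and 308 CPM in vehicle, and TK1 had 138 and 154 CPM, against 149, 148 and 157 CPM in vehicle. The libraries overlapped in both.

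GINS1 was called lower in 10 of the 21 comparisons with vehicle and PCNA in 6. These comparisons share the 3 vehicle libraries, so they are not independent. GINS1 ran from 47.2 to 82.2 CPM in the 56 extract libraries, against 85.1 to 87.7 CPM in vehicle, so all 56 lay below every vehicle library. Among all genes tested 0.102% did so. Zizyphi Fructus was among them, with 71.3 and 75.3 CPM at 20 µg/mL, 77.3 and 73.5 CPM at 100 µg/mL and 74.6 and 73.5 CPM at 500 µg/mL. RPA1 lay below all vehicle libraries in 53 of the 56, RFC3, RPA3 and RRM2 in 50 each, and PCNA in 49. These were the highest counts after GINS1. The lowest was that of POLE, below all vehicle libraries in 6 and above them in 25. The share of all genes tested with such counts was not computed, so the counts are not read as particular to these genes. In the single Banhasasim-tang libraries 30.9% to 37.1% of all genes lay below all vehicle libraries. Since vehicle had a library code of its own, its difference from all extracts together cannot be told apart from a difference between sets of libraries.

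**Figure D5:**
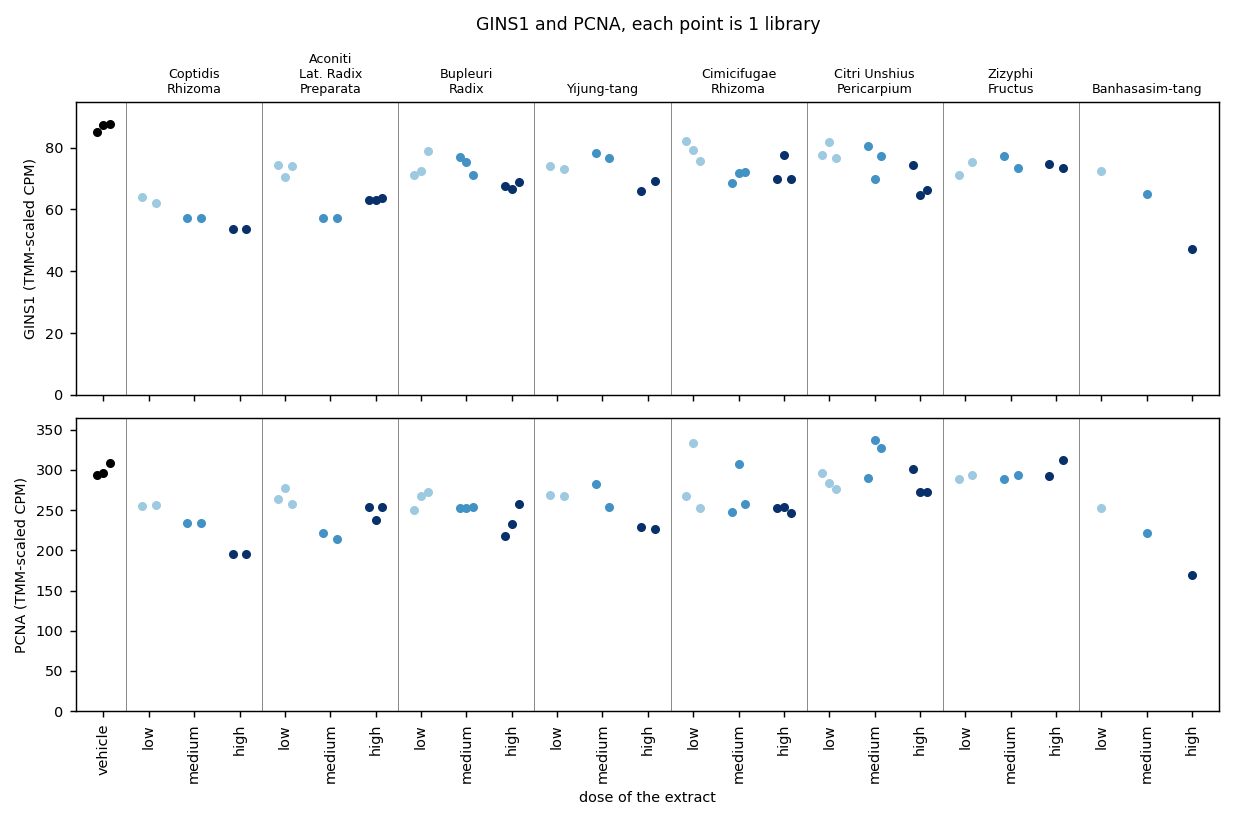
TMM-scaled CPM (y axis, from 0) of GINS1 (top) and PCNA (bottom) in each of the 59 libraries, by extract and dose (x axis), with vehicle at the left. GINS1 lies below 85.1 CPM, the lowest vehicle value, in all 56 extract libraries, while PCNA overlaps with vehicle for Zizyphi Fructus.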

How the data were processed

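RNA of A549 cells was sequenced as 59 strand-specific mRNA libraries with 100 bp paired reads, per the labels' protocols. The submitters' processing notes name RSEM 1.3.3 and STAR 2.7.3a, with Trim Galore 0.6.5 and FastQC 0.11.9, and hg38/GRCh38. Annotation release and use of strand in counting: not given in the sources used here. Values as deposited are RSEM expected counts per gene, of which 84.4% were whole in genes not at 0 throughout. They were rounded to whole numbers. The table also holds 210 per-sample columns of other series, which were not used. Symbols came from a table of Ensembl IDs (56558 matched), and positions from GENCODE 29 (GRCh38), which holds 94% of the IDs.

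Counts were fitted in R 4.3.3 with edgeR 4.0.16 (quasi-likelihood, TMM, 1 mean for each of 25 groups, filterByExpr, minimum count 10, minimum total 15), giving 18568 genes, 34 residual degrees of freedom and 31 comparisons. Calls used a Benjamini-Hochberg adjusted p below 0.05 within each comparison. Alternatives were DESeq2 1.42.0 and its size factors, no filter, a fit restricted to the extracts being compared and, where used, vehicle, the replicate block, fits without the 4 libraries of high antisense share or mitochondrial genes (the last added after seeing the data), and 56 fits without 1 library. Same-numbered libraries deviated together for the high against the low dose of Citri Unshius Pericarpium (correlations 0.235, 0.147 and 0.122). They were judged to be paired there only, but the calls do not use the pairing and no paired test was run. For the high against the low dose of Cimicifugae Rhizoma, not taken as paired, the correlations were 0.264, 0.245 and 0.00419. The scripts were tested on simulated counts. The members, roles, lists and tests were chosen with earlier results of these data known. Values are given in every library for the called gene of largest change in each role, if its mean reached 5 CPM. Other genes shown library by library were chosen after their values were seen. No set test was run.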

Additional observations from a re-analysis of the deposited data

Results flagged for a closer look

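Coptidis Rhizoma and Zizyphi Fructus at the high dose differed in 26 of the 39 genes by the edgeR test of that difference, at 110 and 500 µg/mL. Cimicifugae Rhizoma and Citri Unshius Pericarpium at the high dose differed in 5, and 0 without replicate 3 of Citri Unshius Pericarpium. In 5 genes every library of 1 extract at the high dose lay above vehicle while both Coptidis Rhizoma libraries lay below it. With Zizyphi Fructus these were ORC6 at 0.09 and RFC5 at 0.07 on the log2 scale, and the test of Coptidis Rhizoma against Zizyphi Fructus gave ORC6 -0.52 (called, edgeR adjusted p = 0.000459) and RFC5 -0.53 (called, edgeR adjusted p = 0.0212). With Citri Unshius Pericarpium they were MCM3 at 0.07, MCM5 at 0.32 and MCM7 at 0.22, and their difference from Coptidis Rhizoma was not tested. Replicate 3 of that extract was the highest in these 3 genes, with 196 CPM for MCM5 and 464 CPM for MCM7. Margins could be narrow, as MCM7 had 346 CPM in replicate 1, against at most 345 CPM in vehicle. None of the 5 rises over vehicle was called, and the share of all genes tested with this pattern was not counted.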

How the results depend on the processing

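Counts of the 39 genes called are given here by the first word of each extract and its dose, against vehicle unless another group is named. With DESeq2 the count was 2 for Coptidis low, 4 for Citri high, 1 for Bupleuri medium, 1 for Bupleuri low, 1 for Aconiti low, 6 for Citri high against low and 1 for Bupleuri high against low. In the same fit the count was 10 for Cimicifugae high against Citri high. With DESeq2's size factors in edgeR the count was 1 for Aconiti high against low. In a fit restricted to the extracts being compared (and vehicle) the count was 31 for Coptidis medium, 18 for Coptidis low, 0 for Citri high, 0 for Cimicifugae high, 0 for Cimicifugae medium, 18 for Bupleuri high and 7 for Bupleuri medium. In the same fit the count was 9 for Bupleuri low, 18 for Aconiti high, 24 for Aconiti medium, 5 for Aconiti low, 20 for Yijung-tang high, 2 for Yijung-tang low and 35 for Coptidis high against low. In the same fit the count was 0 for Citri high against low, 6 for Bupleuri high against low, 8 for Aconiti high against low, 2 for Yijung-tang high against low, 0 for Cimicifugae high against Citri high and 1 for Bupleuri high against Aconiti high. With mitochondrial genes left out the count was 1 for Citri high against low and 1 for Aconiti high against low. With no filter on low counts the count was 2 for Coptidis medium, 0 for Coptidis low, 2 for Citri high, 0 for Cimicifugae high, 0 for Cimicifugae medium, 0 for Bupleuri high and 2 for Aconiti high. In the same fit the count was 0 for Yijung-tang high, 2 for Coptidis high against low, 0 for Aconiti high against low and 14 for Coptidis high against Zizyphi high. Leaving out the 4 libraries of high antisense share gave counts of 24 for Coptidis medium, 8 for Coptidis low, 1 for Citri medium, 6 for Cimicifugae high, 5 for Cimicifugae medium, 16 for Bupleuri high and 6 for Bupleuri medium. In the same fit the count was 5 for Bupleuri low, 18 for Aconiti high, 23 for Aconiti medium, 3 for Aconiti low, 13 for Yijung-tang high, 31 for Coptidis high against low and 0 for Citri high against low. In the same fit the count was 5 for Bupleuri high against low, 8 for Aconiti high against low, 1 for Yijung-tang high against low and 1 for Cimicifugae high against Citri high. With each library left out in turn the count ran from 16 to 24 for Coptidis high, 3 to 5 for Coptidis medium, 0 to 14 for Citri high, 0 to 5 for Citri medium, 0 to 1 for Cimicifugae high and 0 to 1 for Cimicifugae medium. In the same fits the count ran from 2 to 4 for Bupleuri high, 1 to 2 for Aconiti high, 6 to 10 for Aconiti medium, 0 to 2 for Yijung-tang high, 1 to 2 for Coptidis high against low and 0 to 15 for Citri high against low. In the same fits the count ran from 0 to 1 for Aconiti high against low, 14 to 17 for Coptidis high against Zizyphi high and 0 to 14 for Cimicifugae high against Citri high. With the replicate block the count was 3 for Citri high against low and 7 for Cimicifugae high against Citri high, and every count under the block stayed within 1.5 times. In all 119 such counts moved by more than 1.5 times and 266 did not, and of the repeated calls on named genes 512 held, 164 were lost and 0 reversed. Groups left with 1 library were assumed to vary like the others. The causes of these shifts were not tested.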
